A study of Mus musculus with 22 samples.

Results

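Muscle carries a small set of highly tissue-restricted miRNAs, and 7 of them were followed here across mouse small intestine, serum and feces after X-ray exposure. They were mmu-miR-143-3p, mmu-miR-143-5p, mmu-miR-145a-5p, mmu-miR-145a-3p, mmu-miR-1a-3p, mmu-miR-133a-3p and mmu-miR-133b-3p (written below without the mouse prefix), chosen by name from the 1881 mouse miRNAs of an Agilent miRNA array. The choice was made with earlier results of these data known. The samples came from male mice of 8 weeks that were exposed to 10 Gy or to 0 Gy of X-rays, delivered at 1.0 Gy each minute. Small intestine and feces had 4 arrays at each dose, and serum had 2 arrays at 0 Gy and 4 at 10 Gy, each array holding Cy3-labelled total RNA of 1 sample. The labels give neither the strain nor the time between exposure and collection, and they name no separation of the muscle wall of the intestine from its mucosa. They also do not say whether the samples of a group were separate animals, so p-values measure only the spread between these samples, which may be technical. Each sample type lay on a slide of its own, and within each slide the doses lay in different columns, so differences between sample types cannot be told apart from differences between slides, nor dose from column. Both rows of each slide held both doses.

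The members fall into 2 groups by the muscle they mark. miR-143 and miR-145 are made from 1 shared primary transcript in smooth muscle cells and their relatives, where they favour the contractile state, and each hairpin yields a 5p and a 3p arm of which one usually dominates. The miR-1 and miR-133 families are made in heart and skeletal muscle under the control of serum response factor and the myogenic factors, and smooth muscle makes them at lower levels. The intestine is wrapped in smooth muscle, so both groups can be present in a whole piece of gut, while serum holds RNA that has left cells, and feces hold RNA of shed gut cells, food and microbes.

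Of the 7 members 1 had a mature sequence in the RefSeq-derived table used here (build GRCm38.p6), which covered 1608 of the 1881 array miRNAs. It is shown with the opposite arm of its hairpin and with miR-206-3p, the miR-1 relative encoded beside it, because the results separate miR-133b-3p from both. Capitals mark the seed, bases 2 to 8 counted from the 5′ end, which sets most of the choice of target.
miR-133b-3p: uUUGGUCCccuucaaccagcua
miR-133b-5p: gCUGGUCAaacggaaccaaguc
miR-206-3p: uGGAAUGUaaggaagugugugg
The miR-133b arms lie on the plus strand at chr1:20682834-20682855 (3p) and chr1:20682797-20682818 (5p), both in the non-coding gene Mir133b, and miR-206-3p lies at chr1:20679055-20679076 in Mir206. No other array miRNA with a sequence in the table shared the seed of miR-133b-3p. The other members, miR-133a-3p among them, had no sequence there, so they were not part of this comparison. The mature miR-133a-3p and miR-133b-3p are nearly identical, so a probe for either may bind both, and the share of each in a signal was not tested.

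The arrays carry several spots of each probe. The values below are the processed signal, a background-subtracted fluorescence in arbitrary units, averaged over replicate spots and added up over all probes for the miRNA in question. Detection on an array required 1 probe or more with at least 50% of spots that the scanner software marked as well above background. Intestine arrays detected 285 to 389 mouse miRNAs each, feces arrays 378 to 675 and serum arrays 131 to 219, and no spot was saturated. The 11 listed miRNAs of intestinal epithelium were all detected on all 8 intestine arrays, and 9 of them were detected in feces and 1 in serum. Of the 4 listed red cell miRNAs, miR-451a and miR-486a-5p were detected in serum, while miR-144-3p and miR-144-5p were detected on no array. The summed unscaled red cell signal in serum was 4605 to 9073 at 0 Gy and 729 to 2392 at 10 Gy.

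In the small intestine 6 of the 7 members were detected on all 8 arrays, and the 7th, the 3p arm of miR-145a, on none of the 22 arrays of the study. miR-143-3p, the main arm of its hairpin, gave signals of 1458, 1383, 1753 and 1891 on the arrays of replicates 1 to 4 at 0 Gy. It gave 2543, 2276, 2746 and 2856 at 10 Gy. All 4 irradiated arrays were brighter than all 4 unirradiated ones before any scaling between arrays. The 5p arm of the same hairpin was detected beside it, at 17.6 to 24.5 at 0 Gy and 32.2 to 39.0 at 10 Gy. miR-145a-5p, which comes from the same transcript as miR-143, gave 296, 231, 341 and 346 at 0 Gy and 486, 408, 552 and 524 at 10 Gy. These arrays did not overlap either.

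The striated muscle members were also present in the intestine. miR-1a-3p gave signals of 243, 267, 336 and 342 at 0 Gy and 426, 374, 454 and 441 at 10 Gy. miR-133a-3p gave 133, 111, 144 and 146 at 0 Gy and 247, 178, 235 and 209 at 10 Gy. miR-133b-3p gave 191, 168, 218 and 219 at 0 Gy and 358, 267, 370 and 336 at 10 Gy. For each of the 3 the irradiated arrays lay above the unirradiated ones. Of the 335 miRNAs tested in intestine, 48.7% were likewise higher at 10 Gy with no overlap in unscaled signal, so this separation was shared with a large share of the array.

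**Figure D1:**
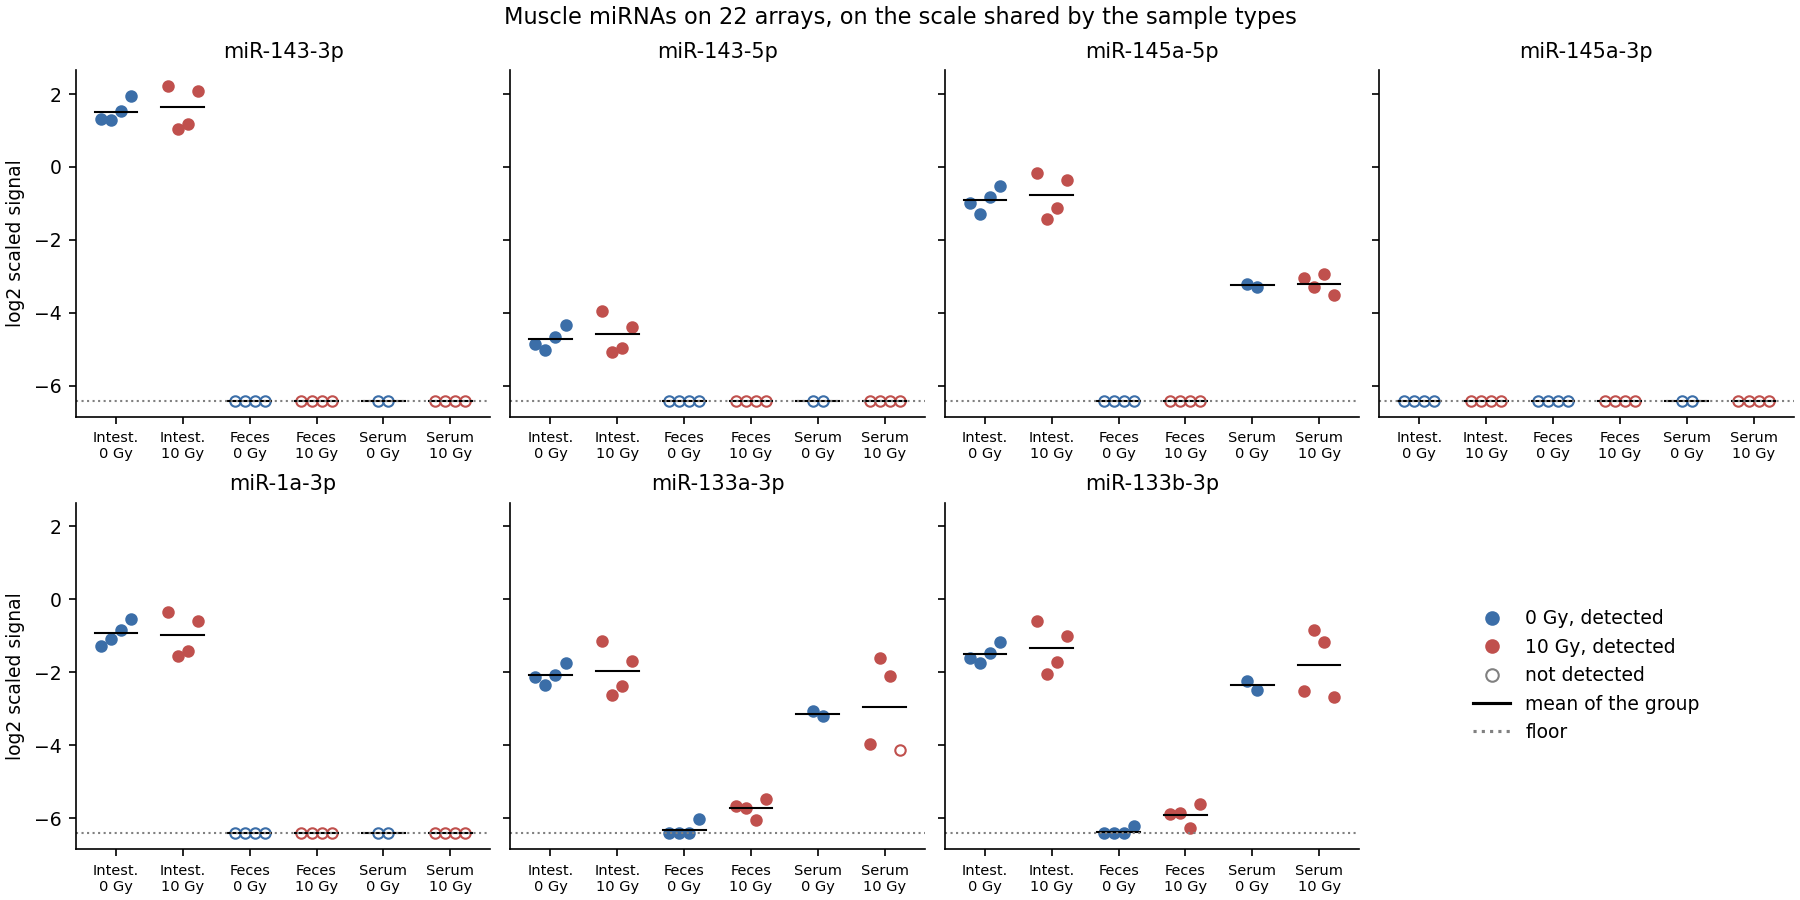
Each panel plots 1 member, with the log2 scaled signal on the shared scale of the 22 arrays on the y axis and the 6 groups on the x axis. Points are single arrays (filled where detected, open where not), lines are group means, and the dotted line is the floor given to values too low to measure. miR-143 and miR-1a-3p leave the floor in intestine alone, miR-145a-5p in intestine and serum, and miR-145a-3p nowhere.

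Scaling removed most of this separation. Each array was divided by the 75th percentile of its signals, taken over those miRNAs that all 8 intestine arrays detected, and values were taken to log2. On that scale the change from 0 to 10 Gy was 0.23 ± 0.18 (SE of the limma fit, n = 4 and 4) for miR-143-3p, with a Benjamini-Hochberg adjusted p of 0.342. It was 0.23 ± 0.18 for miR-143-5p (limma, adjusted p = 0.324) and 0.25 ± 0.19 for miR-145a-5p (limma, adjusted p = 0.327). Among the striated members it was 0.06 ± 0.18 for miR-1a-3p (limma, adjusted p = 0.812), 0.24 ± 0.20 for miR-133a-3p (adjusted p = 0.364) and 0.28 ± 0.19 for miR-133b-3p (adjusted p = 0.266). None of the 6 tested members passed the threshold of 0.05 (limma), nor had any an unadjusted p below 0.05, in a comparison where 41.8% of the 335 miRNAs passed. The scaled values of the doses overlapped for all 6, while 39.4% of the 335 miRNAs showed no overlap. The 95% intervals of the fold change ran from 0.797 at the lowest (miR-1a-3p) to 1.61 at the highest (miR-133b-3p).

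The direction of these changes rests on the scaling: all 6 were positive with the scaling above (0.06 to 0.28), positive and past the threshold without scaling (0.52 to 0.74), and negative with a percentile over all mouse miRNAs (-0.45 to -0.24). With quantile normalization 5 of 6 were positive (-0.17 to 0.24), and with a normexp background correction 3 of 6 were (-0.17 to 0.26). The median change of all 335 tested miRNAs moved in the same way, from 0.16 to 0.62 without scaling, -0.35 with the percentile over all miRNAs, 0.00 with quantile normalization and -0.15 with normexp. Measured from that median, the members lay between -0.10 and 0.12 with the main scaling, without scaling and with the percentile over all miRNAs. They lay between -0.17 and 0.24 with quantile normalization and between -0.02 and 0.41 with normexp. The first 3 settings differ by 1 factor per array, which moves all miRNAs alike and so holds the distance from the median nearly fixed.

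The 6 members also kept their places relative to each other. Over the 8 intestine arrays the root mean square distance between the centred log2 profiles of 2 members was 0.05 to 0.17 over the 15 pairs, with a median of 0.11. The median over all pairs of the 335 miRNAs was 0.54. These 335 needed detection on at least 4 arrays, not on all 8, and 41.8% of them were called for dose. The comparison is therefore not with miRNAs matched to the members. The closest pair was miR-133a-3p and miR-133b-3p (0.05), whose probes may bind each other's target, and the most distant was miR-1a-3p and miR-133a-3p (0.17). All members peaked on the same array, 10 Gy replicate 1, after scaling.

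Ratios within an array do not depend on the scaling. The signal of miR-143-3p over that of miR-145a-5p was 4.93 to 5.99 at 0 Gy and 4.97 to 5.57 at 10 Gy, and the doses overlapped (exact two-sided permutation p = 0.8286). The 3p over the 5p arm of miR-143 was 71.3 to 78.6 and 69.5 to 88.8 (exact p = 0.971). These are ratios of probe signals, not of molecules. miR-143-3p over miR-1a-3p, the ratio with the smallest p, was 5.18 to 5.99 at 0 Gy and 5.97 to 6.47 at 10 Gy. That difference of 0.17 on the log2 scale had an exact two-sided permutation p of 0.0571, where 0.0286 is the smallest that 4 arrays against 4 allow. After Benjamini-Hochberg adjustment over the 9 ratios tested it was 0.45. With 9 ratios and this few arrays, a single ratio could not have passed after the adjustment even with its doses fully apart.

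**Figure D2:**
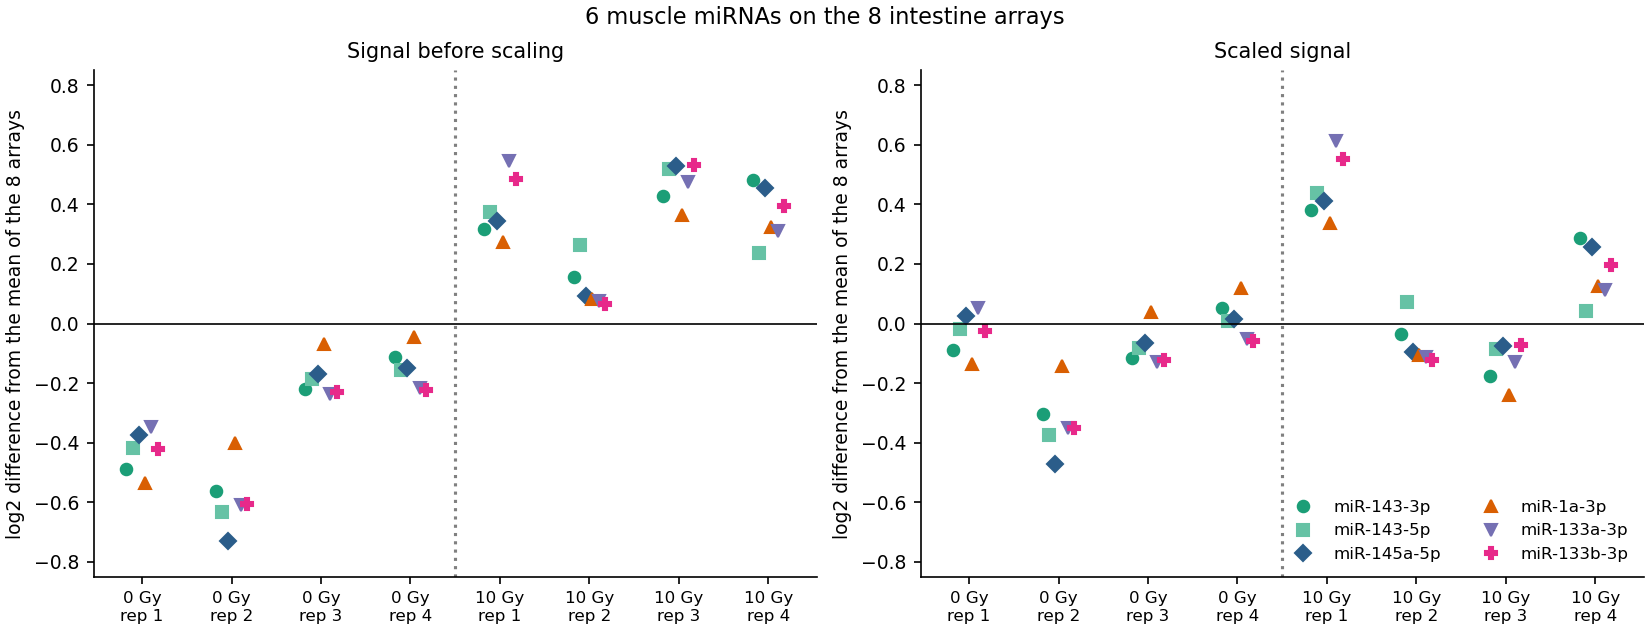
Both panels plot the 6 detected members on the 8 intestine arrays (x axis), as the log2 difference of each array from the member's own mean (y axis), before scaling on the left and after it on the right. Before scaling every 10 Gy array lies above every 0 Gy array for each member. After scaling the doses overlap and the 6 members rise and fall together from array to array.

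The muscle members were set beside lists of miRNAs named for other cell types. The part of muscle in the values of these lists was not tested. The mesenchyme list, miRNAs of fibroblasts and other connective tissue cells, had 11 of 12 members tested. Among these miR-140-3p (-0.22) and miR-140-5p (-0.16) were lower at 10 Gy without being called. The list had 6 calls higher at 10 Gy and 0 lower, with a median change of 0.49. Its leading calls were miR-214-3p (1.03 ± 0.18, limma, adjusted p = 0.0011), miR-199a-5p (0.82 ± 0.18, adjusted p = 0.00441), miR-199a-3p (0.80 ± 0.17, adjusted p = 0.00363) and miR-199b-5p (0.70 ± 0.19, adjusted p = 0.0115). The intestinal epithelium list fell in 6 of its 11 tested members and rose in 0, with a median of -0.63. The leading falls were miR-200c-3p (-0.79 ± 0.20, limma, adjusted p = 0.00836), miR-200b-3p (-0.79 ± 0.20, adjusted p = 0.00836), miR-31-5p (-0.71 ± 0.21, adjusted p = 0.0175) and miR-141-3p (-0.63 ± 0.18, adjusted p = 0.0176). Over all tested miRNAs 26% rose and 15.8% fell, with a median of 0.16. The lists were chosen with earlier results of these data known, so their counts are a description and no independent test. In bulk tissue fewer cells of a type and less RNA per cell cannot be told apart.

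These counts move with the scaling. With the percentile over all miRNAs 0 mesenchymal miRNAs rose and 9 epithelial ones fell, and without scaling 9 rose and 0 fell. Measured from the median of all miRNAs, the mesenchymal median stayed between 0.33 and 0.38 and the epithelial one between -0.79 and -0.39 over the main scaling and the 4 others named above. Leaving out 10 Gy replicate 2 left 3 epithelial falls. The fit within slide row 1 called 3 mesenchymal rises and 0 epithelial falls, and that within row 2 called 0 of either. Within each array, the mean log2 signal of the 11 mesenchymal miRNAs minus that of the 6 muscle miRNAs was -0.45 to -0.25 at 0 Gy and -0.28 to 0.03 at 10 Gy, and the doses overlapped. The same difference for the 11 epithelial miRNAs was 3.58 to 4.05 at 0 Gy and 2.81 to 3.15 at 10 Gy, with no overlap. How often other sets of miRNAs separate from the members in this way was not tested. Of the 335 single miRNAs, 39.4% showed no overlap between the doses in scaled values. The part of other cell types in the muscle values was not tested.

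Of the other cell lists, 1 of 7 leukocyte miRNAs rose (miR-223-3p, 1.20 ± 0.19, limma, adjusted p = 4.71e-04) and 3 fell. The change was -2.32 for miR-150-5p, of mature lymphocytes (limma, adjusted p = 0.00139), -1.04 for miR-142a-3p (adjusted p = 0.00342) and -1.001 for miR-142a-5p (adjusted p = 0.0202). miR-150-5p was detected on 5 arrays of the study. Its intestine mean at 10 Gy was -5.59, near the floor of -5.79, so the floor partly sets the size of its change. The endothelial miR-126a-3p changed by 0.44 ± 0.18 and did not pass (limma, adjusted p = 0.0627). Of the 2 red cell miRNAs tested, miR-486a-5p was the one called, higher at 10 Gy by 0.66 ± 0.17. In intestine 1 of these 2 was detected at 0 Gy and both at 10 Gy. The one not detected at 0 Gy was miR-486a-5p, whose mean there was -5.51, near the floor of -5.79. It entered the test through its irradiated arrays, so no p is given.

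**Figure D3:**
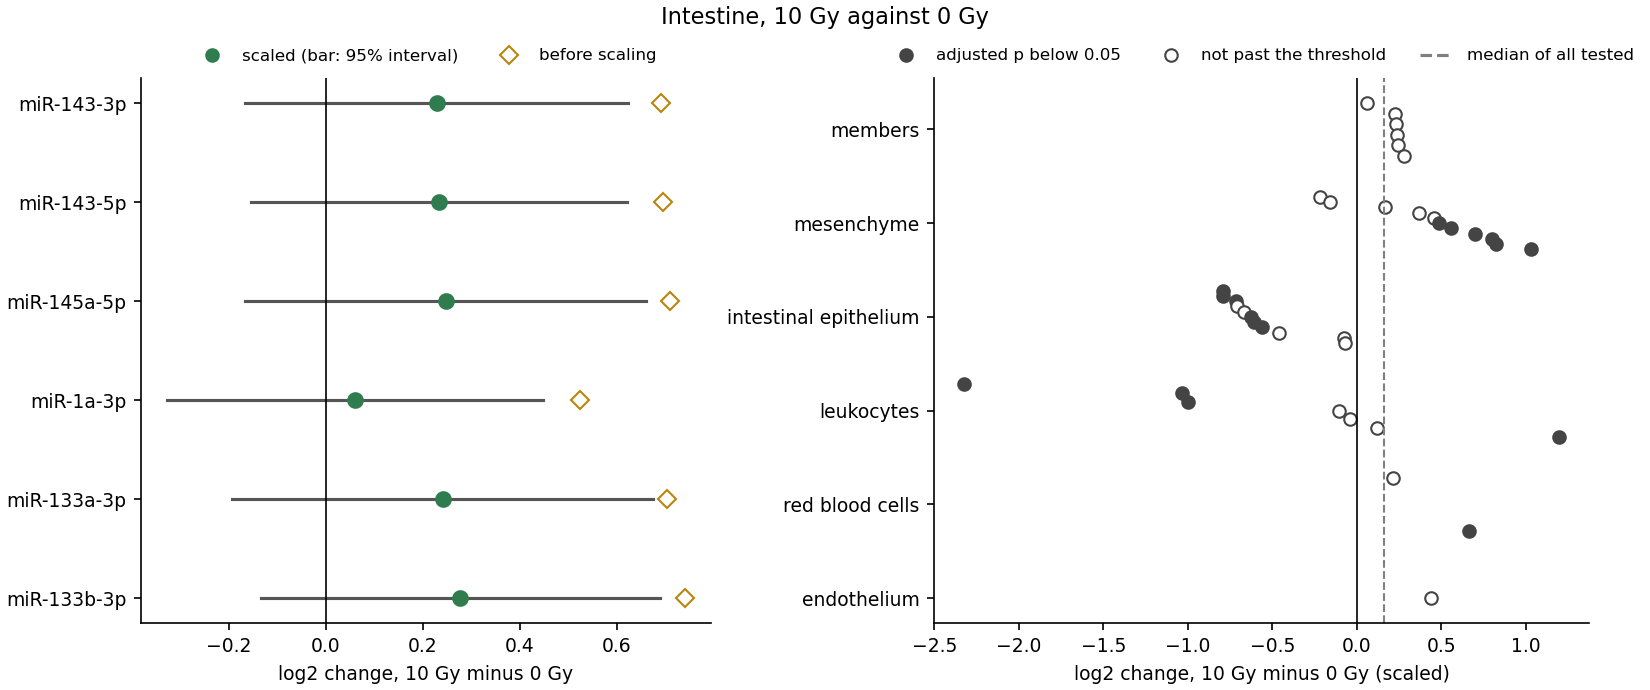
The left panel plots the log2 change from 0 to 10 Gy in intestine for each detected member, scaled with its 95% interval and before scaling. The right panel plots the scaled change of every tested miRNA of the members and the 5 other lists, filled where the adjusted p was below 0.05, with the median of all 335 miRNAs (0.16) as a dashed line. The 6 members lie between 0.06 and 0.28, among them 0 filled, with most mesenchymal points to their right and the epithelial points to their left.

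The mesenchymal miRNAs with the largest rises are printed to show that they share no seed with miR-133b-3p. RefSeq places miR-214-3p at chr1:162223438-162223459, plus strand, in Mir214. It places the arms of miR-199a both in Mir199a-2 (5p at chr1:162217844-162217866 and 3p at chr1:162217883-162217904, plus strand) and in Mir199a-1 (5p at chr9:21496537-21496559 and 3p at chr9:21496498-21496519, minus strand).
miR-214-3p: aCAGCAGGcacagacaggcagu
miR-199a-5p: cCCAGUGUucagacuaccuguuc
miR-199a-3p: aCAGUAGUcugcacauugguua
Their seeds, in capitals, also differ from one another.

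Most of the rest of the muscle family gave no detected signal. Of 14 further muscle miRNAs (the opposite arms of miR-1a and miR-133, miR-1b, miR-133c, miR-145b, miR-206, miR-208a, miR-208b and both arms of miR-499) 11 were detected on no array. miR-145b was detected on 2 arrays, miR-206-3p and miR-499-3p on 1 each, and none was detected often enough to be tested for a dose effect in any sample type. These detections fell in feces at 0 Gy (summed signal up to 65.4) and in intestine at 10 Gy (up to 31.6). miR-208a and miR-208b lie within the myosin genes of heart and slow muscle. miR-206-3p marks skeletal muscle, and miR-133b-5p, the opposite arm of the detected miR-133b-3p, gave no detected signal.

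Feces held 2 of the 7 members. miR-133a-3p and miR-133b-3p were detected on all 8 arrays, while miR-143-3p, miR-143-5p, miR-145a-5p and miR-1a-3p were detected on none. Signals of miR-143-3p in feces were -7.30 to -5.58, that is, below the background that had been subtracted. miR-133a-3p gave 35.0, 25.2, 116 and 105 at 0 Gy and 74.2, 54.8, 54.7 and 56.1 at 10 Gy. miR-133b-3p gave 28.4, 21.9, 94.3 and 91.8 at 0 Gy and 64.6, 49.7, 46.6 and 50.9 at 10 Gy. The unirradiated arrays lay on both sides of the irradiated ones before scaling, and those with the highest signals were also those with the most detected miRNAs (675 and 585).

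After scaling within feces the doses separated. miR-133a-3p stood at -4.58, -4.39, -4.50 and -3.99 (log2) at 0 Gy and at -3.52, -3.82, -3.85 and -3.47 at 10 Gy. miR-133b-3p stood at -4.88, -4.60, -4.80 and -4.18 at 0 Gy and at -3.72, -3.96, -4.09 and -3.61 at 10 Gy. All irradiated arrays were higher, with no overlap, as 19.8% of the 491 miRNAs tested in feces were. The changes were 0.70 ± 0.23 and 0.77 ± 0.24 (SE, n = 4 and 4), and neither passed (limma, adjusted p = 0.0742 for both, unadjusted p = 0.0133 and 0.0108). In this comparison 7.54% of miRNAs passed. Without 0 Gy replicate 4, when 146 miRNAs passed in all, both members did too, at 0.83 (limma, adjusted p = 0.0302) and 0.92 (adjusted p = 0.0293), and without any other single array neither did. Without scaling the changes were 0.05 and 0.13. The 9 tested epithelial miRNAs of feces had a median change of 0.75 and 0 calls, and the median of all 491 was 0.15. No mesenchymal miRNA was detected in feces on any array.

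Serum held 3 members, the smooth muscle miR-145a-5p and both miR-133 species. miR-145a-5p gave signals of 83.8 and 36.9 at 0 Gy and 59.5, 24.0, 50.4 and 18.8 at 10 Gy. After scaling it was nearly level over the 6 arrays, between -2.77 and -2.36 (log2). The 10 Gy minus 0 Gy change was 0.07 ± 0.21 (SE, n = 2 and 4, limma, adjusted p = 0.846). miR-133b-3p gave 163 and 64.9 at 0 Gy and 86.6, 132, 172 and 33.4 at 10 Gy, a scaled change of 0.58 ± 0.53 (limma, adjusted p = 0.611). miR-133a-3p gave 92.4 and 39.1 at 0 Gy and 31.3, 77.5, 89.6 and 12.4 at 10 Gy, and was not called detected on the last of these arrays. Its scaled change was 0.21 ± 0.72 (limma, adjusted p = 0.869).

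None of the 3 serum members passed (limma, and 0 had an unadjusted p below 0.05), where 4.66% of 193 miRNAs did. The signs are not settled either: without scaling all 3 changes were negative (-0.71 to -0.19), and with a percentile over all mouse miRNAs those of miR-133a-3p (-0.0048) and miR-145a-5p (-0.14) were. The 2 miR-133 species spread widely among the irradiated sera: the scaled values of miR-133a-3p were -3.30, -0.96, -1.53 and -3.37, an SD of 1.23, against 0.20 for miR-145a-5p on the same arrays. The 95% interval of the fold change reached from 0.354 to 3.78 for miR-133a-3p, which is wide because of that spread. In serum 0 of 3 tested mesenchymal miRNAs passed. Both red cell miRNAs tested fell after scaling. The summed red cell signals given above are unscaled, and without scaling the median change of all 193 miRNAs was -0.84. The part of red cell RNA in the muscle values was not tested.

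Between sample types, both members detected in feces were lower there than in intestine, at 0 Gy and at 10 Gy. Among all 749 miRNAs tested 35.2% were higher in intestine than in feces at 0 Gy and 36.2% at 10 Gy. On the log2 scale the difference of feces from intestine was -4.24 ± 0.45 for miR-133a-3p (limma, adjusted p = 1.58e-07) at 0 Gy and -3.77 ± 0.45 at 10 Gy (adjusted p = 7.71e-07). For miR-133b-3p it was -4.86 ± 0.36 (limma, adjusted p = 1.28e-09) and -4.56 ± 0.36 (adjusted p = 3.52e-09). On this shared scale 3 of the 4 unirradiated feces arrays were at the floor for both, so at 0 Gy the distance is understated. The size also depends on the probe, as described below. For miR-133a-3p at 0 Gy, unscaled means in feces and intestine were 36.5 and 21.8 (first probe) and 33.8 and 111 (second probe). For miR-133b-3p they were 35.1 and 30.0 (first probe) and 24.0 and 169 (second probe).

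Members not detected in feces can only be given as bounds. Each compares the intestine mean with the lowest signal that counts as detected, per probe and array, and gives the smallest of the values for its probes and of the fold from the fit. These members lay at the floor on every feces array, so no p is given. miR-143-3p was at least 245-fold higher in intestine at 0 Gy and at least 265-fold at 10 Gy. miR-145a-5p was at least 45.5-fold and at least 49.955-fold higher. miR-1a-3p was at least 21.5-fold and at least 12.1-fold higher, and the dim miR-143-5p at least 3.26-fold and at least 3.54-fold. With normexp the log2 difference of miR-143-5p at 10 Gy shrank to -0.25.

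Serum differed from feces in which members it held. Against intestine, miR-145a-5p in serum differed by -2.34 ± 0.27 at 0 Gy (log2, limma, adjusted p = 7.16e-07) and by -2.43 ± 0.22 at 10 Gy (adjusted p = 2.84e-08). miR-143-3p, its partner on the transcript, was not detected in serum and was at least 59.1-fold higher in intestine at 0 Gy and at least 38.5-fold at 10 Gy. miR-1a-3p was at least 2.22-fold and at least 1.33-fold higher, and miR-143-5p at least 1.79-fold and at least 1.17-fold. With normexp the log2 difference of miR-143-5p from intestine was -0.30 at 0 Gy and turned positive at 10 Gy (0.41, limma, adjusted p = 0.0287). Of the 3 members detected in both serum and intestine, miR-145a-5p was the one called at each dose, where 29.5% of the 749 miRNAs were higher in intestine at 0 Gy and 35.4% at 10 Gy.

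For the miR-133 species no difference between serum and intestine passed with the main scaling. miR-133a-3p differed by -1.06 ± 0.55 at 0 Gy (limma, adjusted p = 0.14) and by -0.998 ± 0.45 at 10 Gy (adjusted p = 0.072), and at 10 Gy it passed without serum replicate 2 (-1.46, limma, adjusted p = 0.00598), serum replicate 3 (-1.28, adjusted p = 0.0288) or intestine replicate 2 (-1.22, adjusted p = 0.0397). miR-133b-3p differed by -0.85 ± 0.44 (limma, adjusted p = 0.136) and by -0.46 ± 0.36 (adjusted p = 0.336). Without scaling both passed at 10 Gy, at -2.41 for miR-133a-3p (limma, adjusted p = 7.72e-04) and -1.88 for miR-133b-3p (adjusted p = 0.00297). The direction of these differences is not settled, since both were positive at both doses with quantile normalization (0.42 to 1.38), where miR-133b-3p at 10 Gy passed (limma, adjusted p = 0.00106), as were at 10 Gy miR-133b-3p with the percentile over all miRNAs (0.53) and miR-133a-3p with normexp (0.022). On the shared scale, with the main scaling, the group means at each dose fell in the order intestine, serum, feces for miR-133a-3p, miR-133b-3p and miR-145a-5p. Serum and intestine arrays of the miR-133 species did not overlap at 0 Gy and overlapped at 10 Gy, and the serum arrays of all 3 lay above every feces array.

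No difference in dose effect between sample types passed for any member (limma). The change in feces minus that in intestine was 0.46 ± 0.64 for miR-133a-3p (limma, adjusted p = 0.745) and 0.30 ± 0.51 for miR-133b-3p (adjusted p = 0.831). In serum minus intestine it was 0.39 ± 0.57 for miR-133b-3p (limma, adjusted p = 0.912), 0.06 ± 0.71 for miR-133a-3p and -0.09 ± 0.35 for miR-145a-5p (both adjusted p = 1). The 95% interval for miR-133a-3p in feces minus intestine reached from -0.89 to 1.82. On this shared scale 3 of the 4 unirradiated feces arrays lay at the floor for both miR-133 species, which understates their change in feces. That change was 0.59 for miR-133a-3p and 0.46 for miR-133b-3p in the fit of all 6 groups, against 0.70 and 0.77 within feces. Over all 749 miRNAs 10.9% passed for feces and 7.74% for serum. Without scaling the differences of both miR-133 species turned negative, in feces (-0.65 and -0.61) and in serum (-1.27 and -0.93), and did not pass.

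Each of these members is read by 2 probes, and for the miR-133 species the probes disagreed between sample types. In intestine the signal of the second probe of miR-133b-3p over that of the first was 5.31 to 5.70 over the 8 arrays. In serum it was 4.63 to 5.60 over the 6 arrays, and in feces 0.653 to 0.735 over the 8 arrays. For miR-133a-3p the same ratio was 4.74 to 5.76 in intestine, 1.66 to 4.72 in serum and 0.868 to 1.01 in feces. The feces arrays thus lay apart from every intestine and every serum array for both, at either dose. For miR-145a-5p the ratio was 1.58 to 1.78 in intestine and 1.86 to 2.77 in serum.

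This pattern was noticed after the values were seen, and is given as a description with no test. A comparison was possible for 123 miRNAs in intestine and feces. The size of the shift of the log2 probe ratio between intestine and feces had a median of 0.32 over these, and 5.69% exceeded 2. miR-133b-3p had the largest shift of the 123 (3.01), and miR-133a-3p the 4th largest (2.48). The 8 epithelial miRNAs among them shifted by 0.01 to 0.38. Between intestine and serum miR-133b-3p shifted by 0.11 and miR-145a-5p by 0.36, where the median of 76 miRNAs was 0.25. Of the 123, 3 had a mean feces signal no higher than that of the brighter miR-133 species (65.1), both species among them. These 3 had a median shift of 2.48, and 2 of them, the miR-133 species, shifted by over 2. The other 5 of the 7 miRNAs that shifted by over 2 were among the many brighter ones. The part of brightness in the shift was not tested. What RNA gave the miR-133 signal in feces was not tested, so the feces values above stand for probe signal.

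**Figure D4:**
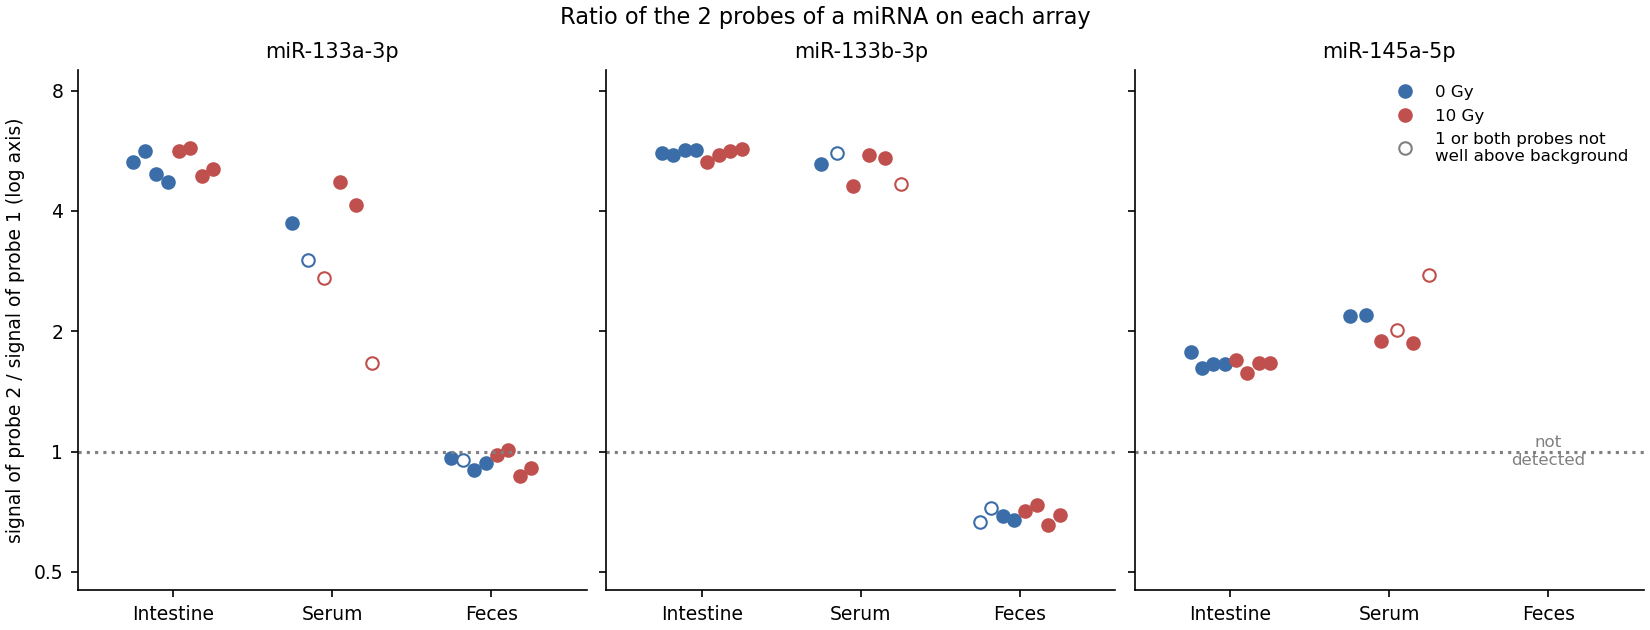
Each panel plots, for 1 member, the signal of its second probe over that of its first (y axis, log axis) on every array of the 3 sample types (x axis), coloured by dose and open where 1 or both probes were not well above background. The feces points of miR-133a-3p (0.868 to 1.01) and miR-133b-3p (0.653 to 0.735) lie below all intestine and serum points.

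The ratio of the 2 species was also set side by side. miR-133b-3p over miR-133a-3p, each summed over its probes, was 1.43 to 1.60 in intestine, 1.66 to 2.76 in serum and 0.811 to 0.907 in feces, so the 3 sample types did not overlap. Between the doses it did not separate in any sample type (exact two-sided permutation p = 0.4 in intestine, 0.143 in feces and 0.2 in serum, where 0.0667 is the smallest possible with 2 arrays against 4).

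Profiles over all 22 arrays were compared by the root mean square distance of centred log2 values, among 629 other miRNAs detected on at least 4 arrays. miR-143-3p lay nearest to the endothelial miR-126a-3p (0.17), followed by let-7d-5p (0.28) and let-7i-5p (0.28), where the median distance was 3.86. miR-1a-3p lay nearest to miR-151-5p (0.08), miR-30b-5p (0.10) and miR-1949 (0.19). miR-145a-5p lay nearest to miR-30e-5p (0.38), miR-378b (0.48) and miR-425-5p (0.66). miR-133a-3p and miR-133b-3p were each other's nearest (0.49), followed by miR-425-5p (0.57) and miR-500-3p (0.67) for the first and by miR-3470a (0.65) and miR-3473b (0.67) for the second. These distances are set largely by the steps between sample types, and where 2 miRNAs share the floor in serum and feces they rest on the 8 intestine arrays.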

How the data were processed

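The authors scanned the arrays and extracted the deposited files with Agilent Feature Extraction 11.5, as the submitters' processing notes list and per the file headers. The deposited intensity used here is its processed signal, background-subtracted and not normalized between arrays. It was averaged over the non-outlying spots of a probe and summed over the probes of a miRNA. All 1289068 values of the authors' deposited series table lay within 1% of it. Each array was scaled by the 75th percentile of its signals over 268 (intestine), 326 (feces) or 121 (serum) miRNAs that every array of that type detected or, between types, over the 81 that all 22 arrays detected. Values were raised to a floor, the median over arrays of the lowest scaled detected value, and taken to log2. Doses and sample types were compared with limma 3.58.1 in R 4.3.3, with Benjamini-Hochberg adjustment over all miRNAs tested and a threshold of 0.05. Tested miRNAs were detected on at least 4 arrays (intestine, feces) or 2 (serum and the fit of all 6 groups). The number of arrays limits the precision.

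The members and lists were chosen with earlier results of these data known. Named are all members, up to 4 called miRNAs of each other list by size of change, the 3 nearest profiles of 5 members, and miRNAs sharing a member's seed. Alternatives were other scalings, background corrections, probe summaries, floors and filters, the series table, blocks and rows of the slides, a replicate block, and leaving out each array.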

Additional observations from a re-analysis of the deposited data

How the results depend on the processing

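In the small intestine, 0 members passed the threshold under 22 of 23 alternatives. Without scaling 6 passed, as did 199 of all 335 miRNAs tested. With a percentile over all mouse miRNAs all members turned negative: miR-133a-3p -0.27, miR-133b-3p -0.24, miR-143-3p -0.29, miR-143-5p -0.28, miR-145a-5p -0.27 and miR-1a-3p -0.45. Quantile normalization turned miR-143-5p (-0.17), and normexp turned miR-133a-3p (-0.011), miR-143-5p (-0.17) and miR-1a-3p (-0.023). miR-1a-3p also turned within slide row 2 (-0.11), in 1 fit of all 6 groups (-0.053) and without single arrays (-0.037 to 0.15). The 140 miRNAs called became 91 with normexp, 32 with no filter on dim miRNAs, 50 and 56 within slide rows 1 and 2, 93 in 1 fit of all groups and 89 to 140 without single arrays (89 without 10 Gy replicate 2).

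In feces the 2 members kept a positive change throughout, with 0 called, except without 0 Gy replicate 4 (0 to 2 over single arrays left out). The 37 miRNAs called became 20 without scaling, 3 with normexp, 3 with only miRNAs detected on every array, 3 with no filter, 0 within slide row 2, 100 in 1 fit of all groups and 0 to 146 without single arrays; each array left out moved this count by over 1.5 times. In serum no alternative called a member. Changes turned without scaling (miR-133a-3p -0.57, miR-133b-3p -0.19, miR-145a-5p -0.71), with the percentile over all miRNAs (miR-133a-3p -0.0048, miR-145a-5p -0.14), with the brightest probe (miR-145a-5p -0.023), with Agilent's total gene signal (miR-133a-3p -0.053, miR-145a-5p -0.13), within slide row 2 (miR-145a-5p -0.019) and without single arrays (miR-133a-3p -0.27 to 0.59). The 9 miRNAs called became 3 without scaling, 2 with only miRNAs detected on every array, 26 in 1 fit of all groups, 1 to 16 without single arrays, and 0 with no filter, a replicate block or within slide row 1 or 2.

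Between sample types, the filter for detection on every array left miR-133b-3p as the one member tested, called in feces at both doses (1 and 1) and in serum at neither (0 and 0). For serum against intestine, quantile normalization turned miR-133a-3p (0.42 at 0 Gy, 0.55 at 10 Gy) and miR-133b-3p (0.72 and 1.38). At 10 Gy the percentile over all miRNAs turned miR-133b-3p (0.53), and normexp turned miR-133a-3p (0.022) and miR-143-5p (0.41). Of the differences in dose effect, no scaling called 2 members in feces and 2 in serum, no filter 1 in each, and normexp 1 in serum, none of them a member detected in both sample types. Without scaling miR-133a-3p turned to -0.65 in feces and -1.27 in serum, and miR-133b-3p to -0.61 and -0.93, none called. In feces a doubled floor turned miR-133a-3p (-0.13) and miR-133b-3p (-0.16), and single arrays left out gave miR-133b-3p -0.088 to 0.74. In serum miR-145a-5p turned with the percentile over all miRNAs (0.13), normexp (0.42) and the brightest probe (0.089), and ranged from -0.31 to 0.11 without single arrays. miR-133a-3p there turned with the replicate block (-0.071) and with scale and floor from the types compared (-0.21), and ranged from -0.36 to 0.45 without single arrays. The cause of these shifts was not tested. The total gene signal, the scale from the types compared, the list counts and the changes of single members between types were alternatives chosen after seeing the data.

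Same-numbered samples of the 2 doses showed no consistent sign of deviating together (correlations of -0.56 to 0.44 in intestine and -0.43 to 0.40 in feces). Serum had 2 such pairs (0.28 and 0.44). Between intestine and feces the correlations were -0.03 to 0.10 at 0 Gy and -0.11 to 0.17 at 10 Gy. Between intestine and serum they were 0.06 to 0.24 at 0 Gy and -0.35 to -0.04 at 10 Gy. The labels do not say whether equal numbers mean the same animal, and the numbers were not taken as pairs. With the replicate number as a block 0 members were called within any sample type, and 134, 41 and 0 miRNAs were called in intestine, feces and serum. The share of higher calls among all calls in intestine was 62.1%, against 19.6% with the percentile over all miRNAs, 93.5% without scaling, 43.9% with quantile normalization and 27.5% with normexp. In feces it was 45.9%, against 0% without scaling, 35.5% with quantile normalization and 33.3% with normexp, and in serum 22.2%, against 0%, 37.5% and 38.5%. Signal over background limits miR-133 in feces and serum, where some arrays had 1 or both probes not well above background.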
